A study of Homo sapiens with 8 samples.

Results

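The members were 10 genes of the insulin-like growth factor (IGF) axis: the IGF-binding proteins IGFBP1 to IGFBP7, the receptors IGF1R and IGF2R, and the receptor adaptor IRS1. They were chosen by symbol, with the measured difference between control HT1080 and control MDA-MB-231 cells in view, where IGFBP4 differed most. Of the 10 genes, 9 had a probe (10 probes of 24526 on the array, 2 of them for IGFBP3), and IGFBP1 was not analysed here. Of these 9, 7 passed the filter on dim probes described below and were among the 9451 genes tested, and IGFBP2 and IGFBP5 did not pass.

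RNA came from 2 established human cancer cell lines, HT1080 (fibrosarcoma) and MDA-MB-231 (breast adenocarcinoma), with 2 Illumina bead arrays in each of 4 groups. The groups were HT1080 with siVRK1, HT1080 with control siRNA, MDA-MB-231 with siVRK1 and MDA-MB-231 with control siRNA. Every siVRK1 array used the single siRNA sequence numbered 308, and every control array a scrambled siRNA. All cells shared medium with 10% fetal bovine serum and gentamicin, 24 h of culture before transfection and 42 h of siRNA. Whether replicates 1 and 2 were separate cultures is not stated in the labels, and every p-value here covers array-to-array spread alone, part of which could be technical.

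IGFs act on cells through IGF1R, a tyrosine kinase of the cell surface that passes its signal to IRS1 and on to the PI3K and AKT kinases. The secreted IGFBPs hold IGFs away from the receptor, carry them, or release them again when a protease cuts the binding protein. IGF2R, also the cation-independent mannose 6-phosphate receptor, has no kinase: it carries IGF2 and newly made lysosomal enzymes to lysosomes. Serum in the medium is itself a source of IGFs and IGFBPs, which an mRNA array does not measure.

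The 2 arrays of a group had an r of 0.991 to 0.995 over all probes. VRK1, a nuclear serine/threonine kinase and the siRNA's target, fell by 1.32 log2 in HT1080 (SE 0.17, limma adjusted p = 0.0240) and by 1.28 log2 in MDA-MB-231 cells (SE 0.17, limma adjusted p = 0.0117). The call in HT1080 was lost without any 1 of the 4 HT1080 arrays (limma adjusted p from 0.268 to 0.338), and the MDA-MB-231 call if HT1080 control 1 or 2 was left out (0.0518) or if only that line's arrays entered the fit (0.292). Of the line markers, KRT7 and KRT19 lay above the filter level in MDA-MB-231 cells only, and SPARC in HT1080 cells only. The others listed for MDA-MB-231 (CD44, KRT8, KRT18, VIM and EGFR) were above it in all 4 groups. CD44 was brighter in HT1080 (12.93 log2, against 12.05, in control cells). Of the luminal breast markers, ERBB2 was above it in all groups, FOXA1 in HT1080 only and CDH1 in MDA-MB-231 siVRK1 cells only. ESR1, PGR, GATA3 and EPCAM were below it in all groups. Of the other markers listed for HT1080 and mesenchymal cells, COL5A1 (9.31 and 9.03 log2 with siVRK1 and control siRNA) and COL1A2 (6.35 and 6.29) were above it in MDA-MB-231 cells only, against the list's name, COL1A1 reached it in MDA-MB-231 control cells only, VIM, CDH2 and TWIST1 were above it in all 4 groups and FN1 in none. Of the 6 leukocyte markers with a probe, PTPRC and CD3E were below it in all groups, CD68 and LAPTM5 above it in all, and CD14 and HLA-DRA above it in MDA-MB-231 cells only. The 6 markers' summed linear intensity was 1341 to 1354 in HT1080 siVRK1 and 1233 to 1389 in HT1080 control arrays, and 1326 to 1465 in MDA-MB-231 siVRK1 and 1399 to 1596 in MDA-MB-231 control arrays, and the part of these markers in the results was not tested.

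IGFBP4, an inhibitory IGFBP that the protease pappalysin-1 cuts, was near background in HT1080 and bright in MDA-MB-231. Its probe (ILMN_1665865) read 5.85 and 5.93 log2 intensity in HT1080 control cells, against 13.06 and 12.72 in MDA-MB-231 control cells. The difference was -7.00 log2 (HT1080 minus MDA-MB-231), or 128-fold lower in HT1080 on the deposited scale, and its size ranked 2 among the 9451 genes. This difference helped to choose the members and is given as a description, with no test; over all genes 53.7% were called between the control arrays (limma, adjusted p under 0.05). The HT1080 values lay under 6.08 log2, the median over all probes of the highest group mean, which served as the filter level. They may be mostly background, so the fold rests on how background is treated: with background subtracted and an offset of 16, an alternative chosen after seeing the data, the difference was -8.16 log2.

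The arrays given siVRK1 were not used to choose the members, and the same comparison of the lines was tested in them. They hold the same lines, so a contrast chosen in the control arrays was likely to recur, and the test is no independent check of it. IGFBP4 read 5.90 and 5.72 log2 in HT1080 siVRK1 cells, against 13.08 and 12.98 in MDA-MB-231 siVRK1 cells. The difference was -7.22 log2 (SE 0.13, limma adjusted p = 2.7e-10). It was large against the spread between replicates, but the choice of IGFBP4 and the filter had largely fixed this outcome. In this comparison 55.6% of all genes were called, so a call by itself says little about a gene. Of the 7 members tested 6 were called, all lower in HT1080, but IGFBP3 and IGFBP4 entered the test only through MDA-MB-231, where they are high. In bulk RNA, fewer cells expressing a gene and less RNA per cell cannot be told apart. The order of the 4 group means was MDA-MB-231 siVRK1 (13.03 log2), MDA-MB-231 control (12.89), HT1080 control (5.89) and HT1080 siVRK1 (5.81), and within each line the neighbouring groups were not called different.

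The gene's start region is printed here because IGFBP4 has the largest contrast of the family, with those of IGFBP3, which is also dim in HT1080, and IGF2R, the member called with siVRK1. Each is 300 bases from RefSeq (GRCh38.p14), 250 before and 50 after the annotated start, 5′ to 3′ on the gene's strand. Capitals mark the motifs searched: TATAAA (the TATA box) on the gene's strand, and GGGCGG (the GC box) and CACGTG (the E-box) on both strands, where GC boxes may overlap each other. No measurement of binding or methylation was made here, so a match is a description only.
IGFBP4, chr17:40443200-40443499, plus strand: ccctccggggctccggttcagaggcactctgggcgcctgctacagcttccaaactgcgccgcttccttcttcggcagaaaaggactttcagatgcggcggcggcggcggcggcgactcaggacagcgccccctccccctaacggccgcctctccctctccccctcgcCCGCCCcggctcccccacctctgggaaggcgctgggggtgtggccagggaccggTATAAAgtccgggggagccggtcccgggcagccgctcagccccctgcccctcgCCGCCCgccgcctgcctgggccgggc
IGFBP3, chr7:45921223-45921522, minus strand: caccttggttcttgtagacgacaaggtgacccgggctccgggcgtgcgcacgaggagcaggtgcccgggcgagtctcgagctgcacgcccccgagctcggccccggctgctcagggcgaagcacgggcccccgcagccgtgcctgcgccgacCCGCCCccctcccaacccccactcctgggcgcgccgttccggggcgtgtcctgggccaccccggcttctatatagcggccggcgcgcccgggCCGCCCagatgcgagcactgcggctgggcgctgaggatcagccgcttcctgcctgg
IGF2R, chr6:159968832-159969131, plus strand: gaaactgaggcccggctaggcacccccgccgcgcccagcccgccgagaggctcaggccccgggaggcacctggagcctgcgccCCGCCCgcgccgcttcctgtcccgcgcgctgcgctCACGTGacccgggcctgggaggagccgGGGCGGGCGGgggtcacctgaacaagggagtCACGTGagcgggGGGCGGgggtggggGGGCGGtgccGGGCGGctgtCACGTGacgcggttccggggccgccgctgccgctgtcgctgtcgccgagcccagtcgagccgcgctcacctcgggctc

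The IGFBP4 window held 1 TATAAA, whose first base lay at -29 from the start, and 2 GC boxes. TATAAA was present in 7.33% of the 35116 RefSeq windows of this length and in none of the windows found for the other 7 members. Only these exact letters were searched, so similar sequences, such as the tatata in the IGFBP3 window, were not counted. The IGFBP3 window had 2 GC boxes and no CACGTG. The IGF2R window had 6 GC boxes and 3 matches of CACGTG, at -132, -74 and -28. At least 1 CACGTG was present in 7.26% of all windows and at least 3 in 0.094%. IRS1 was the only other member with a CACGTG, 1 match at 36 bases after the start. GC content was 74.0% for IGFBP4, 74.7% for IGFBP3 and 78.7% for IGF2R, against a median of 58.7% over all windows. Windows were found for 8 members, which excludes IGFBP1 and IGFBP7.

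**Figure D1:**
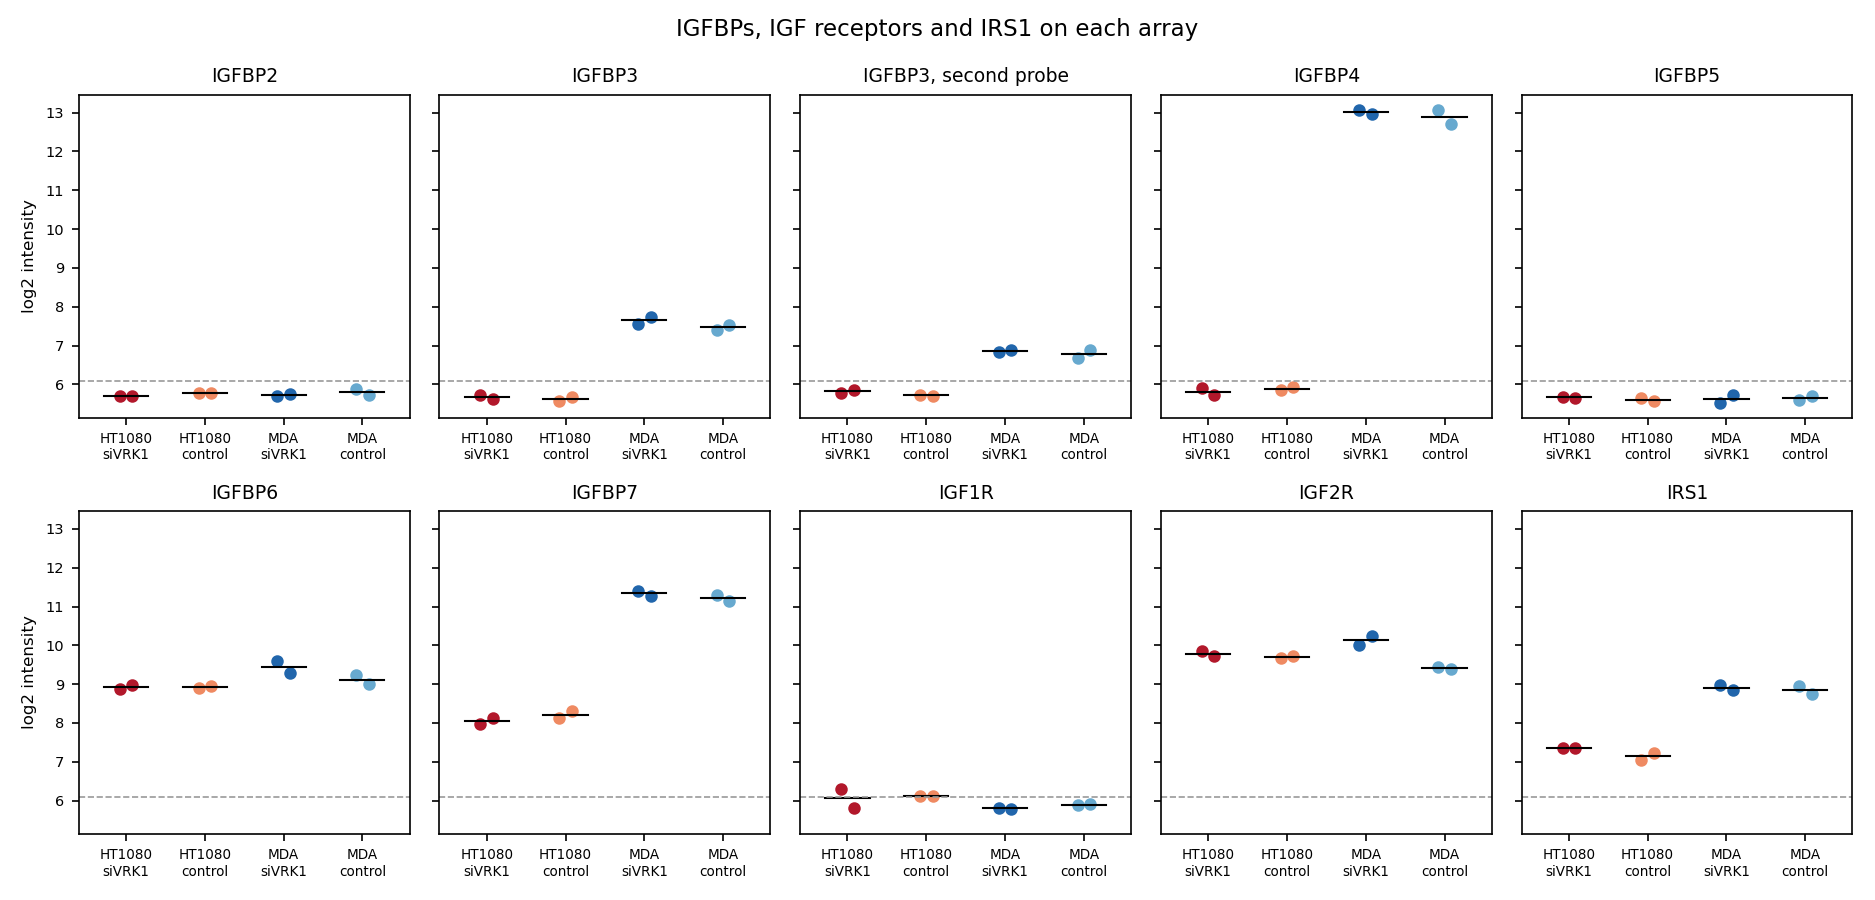
Log2 intensity of the 10 probes of 9 members on each array, with HT1080 and MDA-MB-231 ("MDA") cells given siVRK1 or control siRNA. Points are arrays (2 per group), black lines group means and the dashed line the filter level of 6.08 log2; IGFBP4, IGFBP7, IGFBP3 and IRS1 sit lower in HT1080, IGFBP2 and IGFBP5 lie under the line on all arrays, and IGF2R is highest in MDA-MB-231 siVRK1.

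IGFBP7, a secreted protein of the vessel wall and matrix that binds IGFs more weakly than the other family members, was also lower in HT1080. Control cells read 8.12 and 8.30 log2 in HT1080 and 11.29 and 11.14 in MDA-MB-231, a difference of -3.01 log2 or 8.05-fold lower. In siVRK1 cells the probe read 7.98 and 8.12 log2 in HT1080, against 11.41 and 11.26 in MDA-MB-231. That difference was -3.28 log2 (SE 0.12, limma adjusted p = 1.28e-08). Both lines were well above the filter level, so IGFBP7, unlike IGFBP4, has a measured level on both sides.

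IGFBP3, the main IGF carrier of serum, had 2 probes, and both were below the filter level in HT1080 only. The brighter read 5.56 and 5.69 log2 in HT1080 control cells and 7.39 and 7.54 in MDA-MB-231 control cells. In siVRK1 cells it read 5.72 and 5.62 log2 in HT1080, against 7.57 and 7.74 in MDA-MB-231, a difference of -1.98 log2 (SE 0.11, limma adjusted p = 3.69e-07). The dimmer probe differed by -1.04 log2 in siVRK1 cells and by -1.06 in control cells. The probes share the direction, and the size depends on which one is read. Like IGFBP4, IGFBP3 passed the filter only through MDA-MB-231, where it is high, so that it had to differ.

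IGFBP6, which binds IGF2 in preference to IGF1, differed little between the control cells of the lines, with 8.90 and 8.96 log2 in HT1080 and 9.25 and 8.99 in MDA-MB-231 (-0.19 log2). In siVRK1 cells it read 8.87 and 8.97 log2 in HT1080, against 9.59 and 9.29 in MDA-MB-231. IGFBP6 thus differed by -0.53 log2 (SE 0.13, limma adjusted p = 0.00748). Leaving out MDA-MB-231 siVRK1 1 (0.0606) or HT1080 siVRK1 1 (0.0535) ended the call.

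IGFBP2 and IGFBP5, abundant IGFBPs of many tissues, lay below the filter level in every group. IGFBP2 lay between 5.69 and 5.87 log2 over the 8 arrays and IGFBP5 between 5.52 and 5.72. With no filter on dim probes neither was called in any comparison, with limma adjusted p from 0.682 to 0.999. IGFBP2 and IGFBP5 are neighbouring protein-coding genes on chromosome 2, and IGFBP1 and IGFBP3 are neighbours on chromosome 7.

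Of the receptors and IRS1, IRS1 differed most between the lines. IRS1 read 7.06 and 7.23 log2 in HT1080 control cells and 8.96 and 8.75 in MDA-MB-231 control cells, a difference of -1.72 log2. In siVRK1 cells it read 7.34 and 7.35 log2 in HT1080, against 8.99 and 8.84 in MDA-MB-231, a difference of -1.57 log2 (SE 0.12, limma adjusted p = 2.8e-06). IGF1R was near the filter level everywhere. It read 6.30 and 5.81 log2 in HT1080 siVRK1, 6.13 and 6.12 in HT1080 control, 5.82 and 5.78 in MDA-MB-231 siVRK1, and 5.89 and 5.90 in MDA-MB-231 control cells. It passed the filter only through HT1080 control cells, and its difference in siVRK1 cells was 0.25 log2 (SE 0.15, limma adjusted p = 0.168). Without HT1080 siVRK1 2, the lower of that pair, the difference was 0.50 log2 (limma adjusted p = 0.0124).

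**Figure D2:**
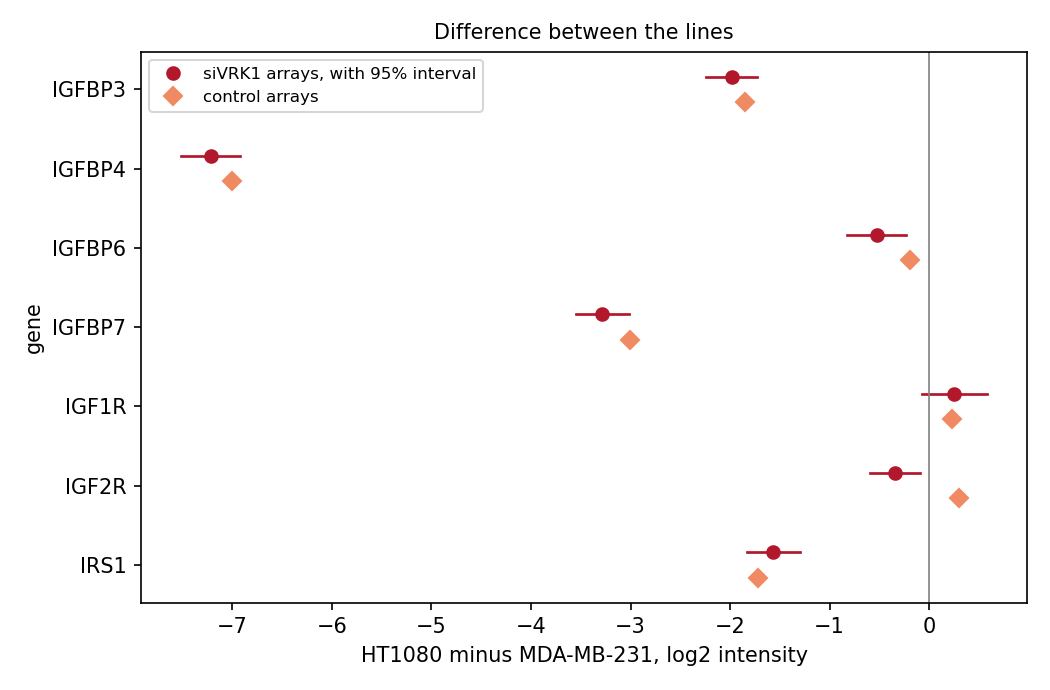
Difference between the lines (HT1080 minus MDA-MB-231, log2 intensity) for the 7 members tested, in siVRK1 arrays (circles, with 95% intervals of the limma fit) and control arrays (diamonds, shown as a description with no interval). IGFBP4 stands at -7.22 and -7.00, IGFBP7 at -3.28 and -3.01, and IGF2R is at -0.34 in siVRK1 arrays and 0.30 in control arrays.

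IGF2R was the 1 member called with VRK1 knockdown, in MDA-MB-231 and not in HT1080. Its probe (ILMN_1807662) read 10.02 and 10.24 log2 in MDA-MB-231 siVRK1 cells, against 9.43 and 9.39 in MDA-MB-231 control cells. Both siVRK1 arrays lay above both control arrays, which held for 20.4% of all genes in that line. IGF2R rose by 0.72 log2, or 1.64-fold (SE 0.11, limma adjusted p = 0.0236, 95% interval 0.46 to 0.97), which ranked 36 by p among 9451 genes. In this comparison 0.995% of all genes were called, against 1 of the 7 members tested. The call was lost without any 1 of the 8 arrays (limma adjusted p from 0.0530 to 0.0900), in a fit of only the 4 MDA-MB-231 arrays (0.306) and with background subtracted at an offset of 16 (0.0630), while the change stayed between 0.61 and 0.83 log2.

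In HT1080, IGF2R read 9.85 and 9.71 log2 with siVRK1, against 9.68 and 9.74 with control siRNA, so the arrays overlapped. IGF2R there changed by 0.08 log2 (SE 0.11, limma adjusted p = 0.899, 95% interval -0.18 to 0.33). The difference between the changes (HT1080 minus MDA-MB-231) was -0.64 log2 (SE 0.16, unadjusted p = 0.00271, limma adjusted p = 0.568), and is therefore not called. Of all genes 0% (0 of 9451) were called for that difference by limma, with 582 at an unadjusted p under 0.05. Averaged over both lines IGF2R changed by 0.40 log2 (SE 0.08, limma adjusted p = 0.0379), where 2.54% of all genes were called. The call on the average was lost without each array other than MDA-MB-231 siVRK1 1 (limma adjusted p up to 0.172). Between the lines, IGF2R was lower in HT1080 than in MDA-MB-231 cells with siVRK1 (-0.34 log2, limma adjusted p = 0.0269), whereas in control cells HT1080 stood 0.30 log2 higher. The call in siVRK1 cells was lost without MDA-MB-231 siVRK1 2 (0.183) or HT1080 siVRK1 2 (0.153).

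No IGFBP was called with siVRK1 in either line. In HT1080, 0 of the 7 members tested were called, where 0.307% of all genes were. By limma 0 of them had an unadjusted p under 0.05, against 981 of all 9451 genes. IGFBP4 changed by -0.08 log2 in HT1080 (95% interval -0.37 to 0.22, limma adjusted p = 0.920), where it is near background, and by 0.14 log2 in MDA-MB-231 (95% interval -0.16 to 0.43, limma adjusted p = 0.755). IGFBP7 changed by -0.16 log2 in HT1080 (-0.42 to 0.11) and by 0.12 log2 in MDA-MB-231 (-0.15 to 0.38). A p that misses the threshold does not show that the levels were the same, and the intervals give the sizes that remain possible.

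IGFBP6 came nearest to a call among the IGFBPs. In MDA-MB-231 both siVRK1 arrays lay above both control arrays, with a change of 0.32 log2 (SE 0.13, unadjusted p = 0.0356, limma adjusted p = 0.327). In HT1080 its change was -0.01 log2 (95% interval -0.31 to 0.28). IRS1 changed by 0.20 log2 in HT1080 (SE 0.12, limma adjusted p = 0.625), where both siVRK1 arrays were above the control arrays, and by 0.05 log2 in MDA-MB-231, where they overlapped. IGFBP3 changed by 0.05 log2 in HT1080 and 0.18 in MDA-MB-231, and IGF1R by -0.07 and -0.09, none of them called. The 2 siVRK1 arrays stood wholly to one side of the control arrays for 1 of 7 members in HT1080, against 45% of all genes, and for 4 of 7 in MDA-MB-231, against 39.3% of all genes. With 7 members these counts are a description.

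**Figure D3:**
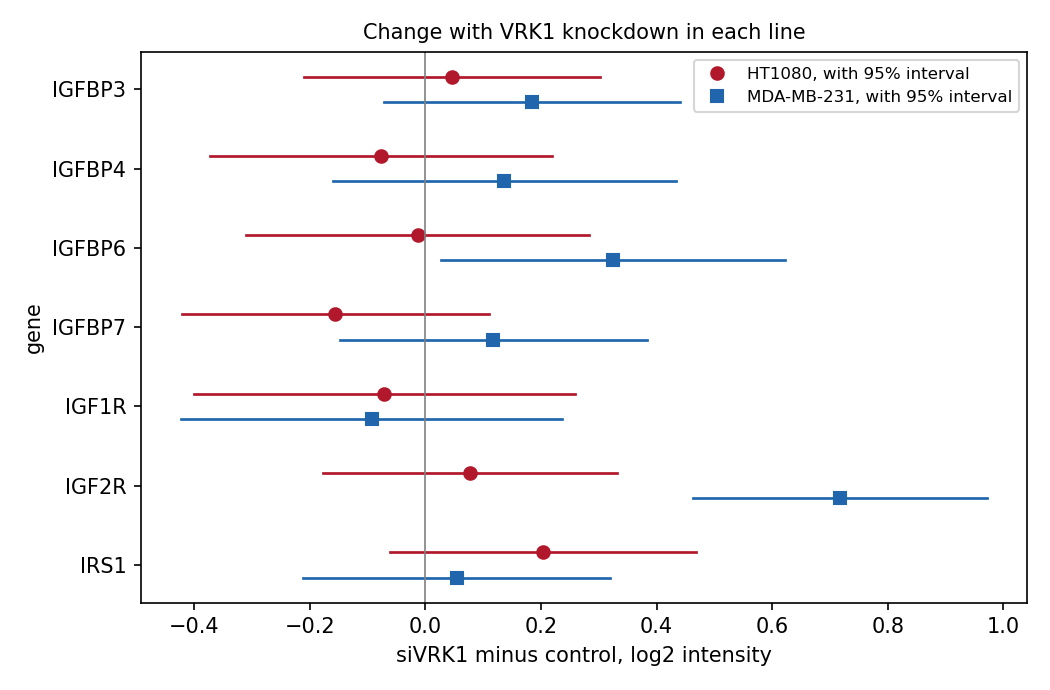
Change with VRK1 knockdown (siVRK1 minus control, log2 intensity) for the 7 members tested, in HT1080 (circles) and MDA-MB-231 (squares), with 95% intervals of the limma fit over 2 arrays per group. IGF2R in MDA-MB-231 stands at 0.72; the other intervals cross 0 except that of IGFBP6 in MDA-MB-231, which runs from 0.03 to 0.62 before adjustment over all genes.

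The other genes of the axis were taken from lists of pathway members rather than by how they moved. The ligand genes IGF1, IGF2 and INS and the receptors INSR and INSRR were below the filter level, and their probes read between 5.47 and 5.97 log2 over all arrays. Of the 7 genes in this list, the 2 tested were M6PR, the smaller mannose 6-phosphate receptor, and TMEM219, a cell-surface receptor for IGFBP3. In siVRK1 cells M6PR read 10.94 and 10.88 log2 in HT1080, against 8.89 and 8.57 in MDA-MB-231, a difference of 2.18 log2 (SE 0.15, limma adjusted p = 1.69e-06). TMEM219 was lower in HT1080 by the same comparison (-0.71 log2, SE 0.11, limma adjusted p = 0.000363). With siVRK1, M6PR changed by -0.19 log2 in HT1080 and -0.01 in MDA-MB-231, neither called.

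The genes for pappalysin-1 and its inhibitors were higher in HT1080, the line in which IGFBP4 was lower. PAPPA, the protease that cuts IGFBP4, read 7.83 and 7.88 log2 in HT1080 siVRK1 cells, against 6.20 and 6.48 in MDA-MB-231 siVRK1 cells. It was 1.52 log2 higher in HT1080 (SE 0.14, limma adjusted p = 1.03e-05). STC1 and STC2, the stanniocalcins, which inhibit that protease, were higher in HT1080 by 2.14 log2 (limma adjusted p = 1.35e-06) and 3.58 log2 (limma adjusted p = 2.79e-09). STC2 read 9.34 and 9.31 log2 in HT1080 siVRK1 cells, against 5.75 and 5.75, under the filter level, in MDA-MB-231 siVRK1 cells. Its MDA-MB-231 control mean (5.81) was under that level too. STC2 was thus tested only through HT1080, where it is high, so that it had to differ. PAPPA and STC1 were singled out after their values were seen. Of the 20 proteases, inhibitors and carriers listed, 12 were tested, and in siVRK1 cells 6 were called higher and 5 lower in HT1080, where 55.6% of all genes were called, with a median of 0.87 log2 against 0.00 for all genes. MMP1 and MMP9, matrix metalloproteinases that can degrade IGFBPs, were higher in HT1080 by 4.66 and 4.52 log2, and TIMP3, a metalloproteinase inhibitor, was lower (-3.25 log2). The lower line of each of these 3 genes, MDA-MB-231 for the MMPs and HT1080 for TIMP3, was under the filter level with siVRK1. MMP9 and TIMP3 were under it in that line's control cells too, and so were tested only through the line where they are high.

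In this list 1 of the 12 genes tested was called with siVRK1 in a line, in MDA-MB-231, where 0.995% of all genes were called. PLAU, the urokinase protease that activates plasmin, read 10.03 and 10.05 log2 in MDA-MB-231 siVRK1 cells, against 11.25 and 11.02 in MDA-MB-231 control cells. It fell by 1.10 log2 in MDA-MB-231 (SE 0.15, limma adjusted p = 0.0144). The arrays did not overlap, which held for 39.3% of all genes in that line. In HT1080 its change was -0.45 log2 (limma adjusted p = 0.336), and the difference between the changes was 0.65 log2 (limma adjusted p = 0.714). PLAU was no longer called there if MDA-MB-231 siVRK1 1 (0.0595) or either HT1080 control array (0.0620) was left out, or if only that line's arrays were fitted (0.142). Averaged over both lines PLAU changed by -0.77 log2 (SE 0.11, limma adjusted p = 0.00710), where 2.54% of all genes were called. The call on the average was lost without HT1080 control 1 (-0.75 log2) or HT1080 control 2 (-0.79 log2). None of the other 11 was called in either line. PAPPA had the lowest value in HT1080 (-0.53 log2, limma adjusted p = 0.208, but 0.0485 in a fit of only the HT1080 arrays and up to 0.654 over the other alternatives) and MMP1 the highest (0.37), while TIMP2 was highest in MDA-MB-231 (0.45, limma adjusted p = 0.137). The dimmer kept probe of TIMP2 read 8.37 and 7.90 log2 in MDA-MB-231 siVRK1 cells, against 8.29 and 7.87 in MDA-MB-231 control cells, so its arrays overlapped. The list's median change was -0.11 log2 in HT1080 and -0.03 in MDA-MB-231.

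**Figure D4:**
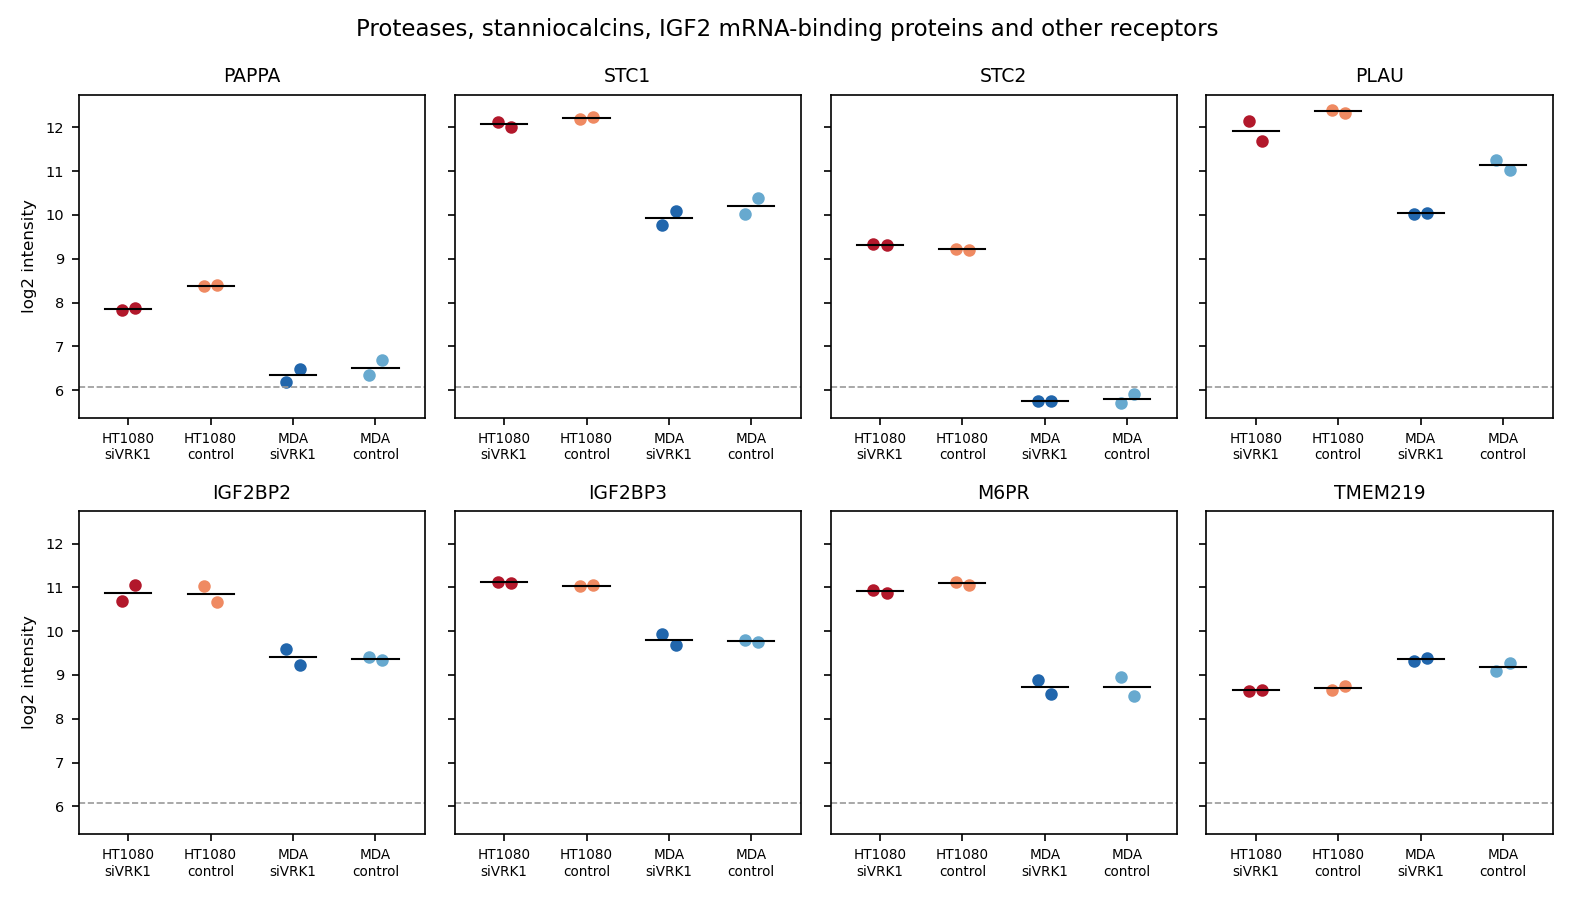
Log2 intensity of 8 genes of the IGF axis on each array in HT1080 and MDA-MB-231 ("MDA") cells given siVRK1 or control siRNA. Points are arrays (2 per group), black lines group means and the dashed line the filter level of 6.08 log2; PAPPA, STC1, STC2, PLAU, IGF2BP2, IGF2BP3 and M6PR sit higher in HT1080, and PLAU is lower with siVRK1 than with control siRNA in MDA-MB-231.

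The IGF2 mRNA-binding proteins IGF2BP2 and IGF2BP3 were both higher in HT1080 siVRK1 than in MDA-MB-231 siVRK1 cells, by 1.46 log2 (limma adjusted p = 5.97e-05) and 1.31 log2 (limma adjusted p = 7.75e-06), and IGF2BP1 was below the filter level. With siVRK1 both changed by less than 0.1 log2 in each line. Of 12 genes for proteins with an IGFBP domain, including the CCN family, 6 were tested and 0 were called with siVRK1 in either line. Over all genes 0.307% were called in HT1080 and 0.995% in MDA-MB-231, so this count sets the list apart from no others. CCN2, connective tissue growth factor, changed by 0.19 log2 in HT1080 and -0.45 in MDA-MB-231 (limma adjusted p = 0.693 in HT1080 and 0.144 in MDA-MB-231). Between the lines with siVRK1, ESM1, endocan, was higher in HT1080 by 4.40 log2 (under the filter level in MDA-MB-231, so that it was tested only through HT1080, where it is high), CCN2 by 1.51 log2, and CCN3 was lower (-1.41 log2). CRIM1, a transmembrane protein with an IGFBP domain, read 8.91 and 8.92 log2 in HT1080 siVRK1 and 7.80 and 7.42 in MDA-MB-231 siVRK1 cells, and was also called higher in HT1080.

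Downstream of the receptors, siVRK1 called no gene in either line among 16 tested receptor adaptors and attenuators, 21 tested genes of PI3K, AKT and mTOR, and 13 tested AKT substrates and FOXO targets. By limma 7 of these 50 had an unadjusted p under 0.05 in HT1080 and 4 in MDA-MB-231. Over all 9451 genes tested, 981 had such a p in HT1080 and 1244 in MDA-MB-231. Since 0.307% of all genes were called in HT1080 and 0.995% in MDA-MB-231, the absence of calls sets these genes apart from no others. Their median changes were 0.09, 0.08 and 0.04 log2 in HT1080 and 0.04, 0.06 and 0.11 log2 in MDA-MB-231, against 0.00 for all genes in each line. IRS2, the other widely expressed IRS adaptor, had the highest value of the adaptors in HT1080 (0.55 log2, limma adjusted p = 0.208). NEDD4, a ubiquitin ligase, had the lowest there (-0.41). PTPN11, a phosphatase, was highest in MDA-MB-231 (0.39) and SHC1 lowest (-0.20). MAPKAP1, a subunit of mTOR complex 2, had 0.52 log2 in both lines and rose on their average by 0.52 log2 (SE 0.09, limma adjusted p = 0.0162), the 1 gene of these 50 called there, a share no higher than the 2.54% of all genes. The dimmer kept probe of MAPKAP1 went the other way. It read 7.38 and 7.47 log2 in HT1080 siVRK1 cells, against 7.49 and 7.66 in HT1080 control cells. In MDA-MB-231 it read 7.20 and 6.89 with siVRK1, against 7.58 and 6.98 with control siRNA. With the mean of the gene's probes the change on the average of the lines was 0.16 log2 (limma adjusted p = 0.479). Without any 1 of the 4 HT1080 arrays the call was lost too (up to 0.108). In HT1080 alone MAPKAP1 was called with array weights (limma adjusted p = 0.0468) and not without them (0.138).

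The genes whose 8 array values, less each gene's own mean, lay nearest to those of IGFBP4 were S100A4, a small calcium-binding protein, at a Euclidean distance of 0.34 log2, then PLAAT4 (2.41), MARCKS (2.47), VAMP8 (2.48) and CYBA (2.65). IGFBP4 itself ranged over 7.36 log2 across the 8 arrays. S100A4 averaged 6.93 log2 in HT1080 control cells and 13.73 in MDA-MB-231 control cells. This likeness is carried by the difference between the lines and is a description over 9450 genes.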

How the data were processed

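RNA of 8 samples was hybridised as biotinylated cRNA to Illumina bead arrays, 1 colour. The authors deposited log2 intensities of 24526 probes without detection values. GenomeStudio is named per the submitters' processing notes; version, normalization and background step are not given in the sources used here. The deposited columns have nearly 1 distribution (percentiles differ by at most 0.00305 log2), so no further normalization was applied. The number of arrays limits the precision.

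Probe symbols came from the platform annotation and were updated by gene ID to GRCh38.p14 names (21813 of 21834 named probes matched). Probes with a highest group mean of at least 6.08 log2 were kept (12263), and the kept probe with the highest mean stood for its gene (9451 genes). limma 3.58.1 in R 4.3.3 (lmFit, eBayes) was fitted across all genes with 1 mean for each of the 4 groups (4 residual and 5.86 prior degrees of freedom). Tests were two-sided, with Benjamini-Hochberg adjustment over all 9451 genes and calls at an adjusted p under 0.05. The control-line comparison had helped to choose the members and was not tested for them. For the MDA-MB-231 siVRK1 comparison (9451 genes), data were simulated with independent normal noise at each gene's variance averaged over the 4 groups. There 34.1% of changes of 0.5 log2, 84.1% of 1 log2 and 95.9% of 1.5 log2 were recovered, with 3.68% of calls false. The real MDA-MB-231 replicates spread more than those of HT1080. The SD of replicate differences was 0.269 (control) and 0.239 log2 (siVRK1), against 0.175 and 0.181 in HT1080. A deviation shared between arrays was not simulated either, so these shares need not hold for the real MDA-MB-231 arrays.

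The members and lists were chosen with earlier results of these data known. Named were all members and VRK1. Pathway genes were named from those called in a comparison, up to 4 per list by smallest p. Genes with a list's highest or lowest change in a line could be named too. Not every gene that met this rule was described with the others. Among those left out, PTPN1 was lower in HT1080 with siVRK1 (-0.97 log2 between the lines). With siVRK1 in HT1080, KAZALD1 (-0.39 log2), BCL6 (0.30) and CDKN1B (-0.36) were left out as well, none of them called. For IGFBP4 the 5 nearest genes were added. Alternatives changed the filter, the probe rule, background, normalization, the prior, array weights, replicate block, the arrays fitted and each array in turn. Same-numbered siVRK1 and control arrays deviated together in MDA-MB-231 (r = 0.485 across genes) but not in HT1080 (r = -0.05). The main fit did not take the numbers as pairs in either line, so it leaves the shared deviation in MDA-MB-231 unmodelled. A pairing within MDA-MB-231 alone was not fitted.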

Additional observations from a re-analysis of the deposited data

How the results depend on the processing

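Over 18 alternatives at most, 104 gene values were recomputed. Of 1853 recomputed values, 1770 kept direction and side of the threshold, or moved by less than the replicate SD where untested, 41 lost a call, 4 gained one, 30 changed sign and 8 untested ones moved further. The count of members called with siVRK1 in MDA-MB-231 was 1; it was 0 with the arrays of that line alone, 0 with background subtracted at an offset of 16 (added after seeing the data, since the planned offset of 50 nearly restores the background) and 0 without any 1 array. The count on the average of the lines was 0 at that offset, and 0 to 1 without 1 array. Counts stayed at 0 in HT1080 and for the difference between lines, and at 5 or 6 for siVRK1 cells between lines. With a replicate block the count was 1 in MDA-MB-231 and IGF2R had a limma adjusted p of 0.0237; the block changed no other member's call.

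Over all genes 94 were called with siVRK1 in MDA-MB-231, against 26 at an offset of 16, 51 with array weights, 0 with that line's arrays alone (limma) and 10 to 108 without 1 array. In HT1080 29 were called, against 12 at that offset, 16 with the replicate block, 84 with that line's arrays alone, 109 with array weights and 0 to 39 without 1 array. On the average 240 were called, against 126 at that offset and 23 to 273 without 1 array. The average and the difference of the changes cannot be had from 1 line's arrays.

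The control difference of IGFBP4 ranged from -7.17 to -6.83 log2 without 1 array and was -8.16 at an offset of 16. All changes of sign concerned values not called. Most arose without 1 array: in HT1080 IGFBP3 ran from -0.016 to 0.11 log2, IGFBP4 from -0.17 to 0.012, IGFBP6 from -0.063 to 0.036, IGF2BP2 from -0.149 to 0.212 and IGF1R from -0.32 to 0.18. In MDA-MB-231 IGFBP4 ran from -0.034 to 0.31, IRS1 from -0.051 to 0.16, IGF2BP2 from -0.146 to 0.215, IGF2BP3 from -0.103 to 0.158, M6PR from -0.22 to 0.20, TRIB1 from -0.072 to 0.70 and TRIB3 from -1.27 to 0.48. On the average IGFBP4 ran from -0.055 to 0.115 (-0.026 at an offset of 16), IGFBP7 from -0.064 to 0.026 and IGF1R from -0.21 to 0.041. The difference between lines ran from -0.23 to 0.27 for IGF1R and from -0.29 to 0.22 for VRK1. The causes were not tested. Some of these signals were near the filter level and hold undivided background (IGFBP4 and IGFBP3 in HT1080, IGF1R in both lines). Others were well above it, such as IGFBP6 (8.93 log2) and IGF2BP2 (10.84 log2) in HT1080 control cells.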

Other observations

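Regulators downstream of the receptors differed between the lines in siVRK1 cells, a comparison in which 55.6% of all genes were called. SOCS2, a suppressor of cytokine and growth factor signalling, was lower in HT1080 than in MDA-MB-231 (-2.89 log2, SE 0.15, limma adjusted p = 1.77e-07), and GRB10, an adaptor that restrains insulin and IGF receptors, was lower too (-1.99 log2, limma adjusted p = 1.29e-05). GRB10 was just under the filter level in HT1080 and was tested only through MDA-MB-231, where it is high. SH2B1, an adaptor that promotes insulin receptor signalling, was 1.20 log2 higher in HT1080. Of the 16 adaptors and attenuators tested, 5 were called higher and 6 lower in HT1080, with a median of -0.11 log2 against 0.00 for all genes. Of the genes called, GRB14 and MDM2 were under the filter level in MDA-MB-231, and SOCS1 and SOS2 in HT1080, with siVRK1 and control siRNA. Like GRB10, each was thus tested only through the line where it is high, so these calls say little.

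Of the 21 PI3K, AKT and mTOR genes tested, 7 were called higher and 5 lower in HT1080 siVRK1 than in MDA-MB-231 siVRK1 cells. In this comparison 55.6% of all genes were called. RHEB, the GTPase that activates mTOR complex 1, read 10.14 and 10.09 log2 in HT1080 and 11.07 and 11.16 in MDA-MB-231, and was called lower in HT1080. RPS6KB2, an S6 kinase (-0.89 log2), and TSC1, a subunit of the complex that restrains RHEB (-0.82 log2), were lower as well. RPS6 went the other way and was higher in HT1080 (0.83 log2, SE 0.17, limma adjusted p = 0.00237). Among AKT substrates and FOXO targets, GSK3B, a kinase that AKT inhibits, was 1.62 log2 higher in HT1080 and SESN1, a stress-responsive inhibitor of mTOR complex 1, 1.70 log2 higher. TXNIP, a thioredoxin inhibitor that limits glucose uptake (-1.54 log2), and BAD, a pro-apoptotic AKT substrate (-1.07 log2), were lower. TXNIP was under the filter level in HT1080 and was likewise tested only through MDA-MB-231. The size for BAD depends on the probe. In siVRK1 cells a dimmer kept probe read 6.14 and 6.30 log2 in HT1080, against 6.63 and 6.51 in MDA-MB-231. The dimmest kept probe read 6.02 and 6.05 log2 in HT1080, against 6.23 and 6.10. Over the alternatives the BAD difference ran from -1.24 to -0.52 log2.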
